A study of Mus musculus with 4 samples.

Results

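The Rab GTPases are a family of small membrane switches, and their genes were followed here in mouse group 3 innate lymphoid cells (ILC3s) with and without TL1A. Members were all gene symbols made of Rab, a number and up to 2 letters. By this rule 63 symbols of the RefSeq gene table were found, of which 4 were left out: the opposite-strand RNAs Rab10os and Rab26os, and Rab3ip and Rab5if, which encode proteins that act on or bind a Rab. Of the remaining 59 genes, 57 had rows in the deposited table of 24343 genes, and Rab36 and Rab44 had none. After a filter on low counts, 37 Rab genes of 9852 genes in all were tested.

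The cells were sorted from mice with genotype IL23R-GFP/WT by the lack of lineage markers and by CD127 and GFP, and both groups share this genotype, with a GFP allele and a wild-type allele of the IL-23 receptor gene. There were 2 libraries kept in medium and 2 stimulated with TL1A, a TNF superfamily cytokine. The labels state no dose, time or age of the mice, and they do not say whether libraries of the same condition are from different animals or cultures. The p-values rest on the spread between these 4 libraries alone, and that spread may be technical. The question addressed is how TL1A changes the transcriptome of ILC3s.

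The libraries held 11495636 to 12605164 reads assigned to transcripts. The 10 fixed ILC3 markers were all detected, with summed levels of 7083 and 7403 CPM (read counts scaled to a common library size by TMM factors) in medium and 12662 and 12758 CPM with TL1A. The defining markers of T cells and B cells were at or near 0, with summed levels of up to 5.60 and 0.637 CPM, although the T cell receptor constant genes were not among the rows. Markers of myeloid cells summed to 82.6 and 93.8 CPM in medium and to 34.8 and 44.4 CPM with TL1A; 5 of 6 had reads and Itgam had none. Markers of mast cells and platelets, both rich in secretory granules, summed to 23.0 and 31.6 CPM in medium and to 7.35 and 3.10 CPM with TL1A; 4 of 6 had reads, and Mcpt4 and Tpsb2 had none. ILC2 markers, all 3 with reads, summed to 184 and 184.5 CPM in medium and 151 and 133.9 CPM with TL1A. Epithelial and stromal markers, 4 of 5 with reads, summed to 13.2 and 6.82 CPM in medium and 3.44 and 2.67 CPM with TL1A. In these bulk libraries, fewer cells of a type and less RNA per cell cannot be told apart.

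Rab proteins cycle between an inactive form bound to GDP and an active form bound to GTP. Exchange factors switch them on, GTPase-activating proteins switch them off, and the active form recruits effectors such as tethers and motor adaptors to 1 kind of membrane. Each Rab marks its own compartments: some act between the endoplasmic reticulum (ER), the Golgi and the cell surface, others on endosomes, lysosomes or secretory granules. In lymphocytes this traffic carries newly made cytokines and receptors outward and brings surface proteins back in.

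With TL1A, 8 of the 37 tested Rab genes rose and 8 fell (edgeR quasi-likelihood test, Benjamini-Hochberg adjusted p under 0.05). These are 21.6% of the members in each direction, where 20.6% of all tested genes rose and 21.7% fell, so the share of Rab genes called is near the background. The median log2 fold change was -0.12 over the Rab genes and -0.03 over all tested genes. Changes of at least 2-fold were found in 3 of the higher members, Rab26, Rab27a and Rab20, and in 4 of the lower ones, Rab19, Rab32, Rab33a and Rab4a. At that size 8.77% of all genes rose and 10.6% fell. The libraries of the groups did not overlap for 26 tested Rab genes, 12 of them above medium with TL1A and 14 below, against 72.2% of all tested genes. Fewer Rab genes rose and fewer fell when either TL1A replicate was left out, and the same held for all tested genes.

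**Figure D1:**
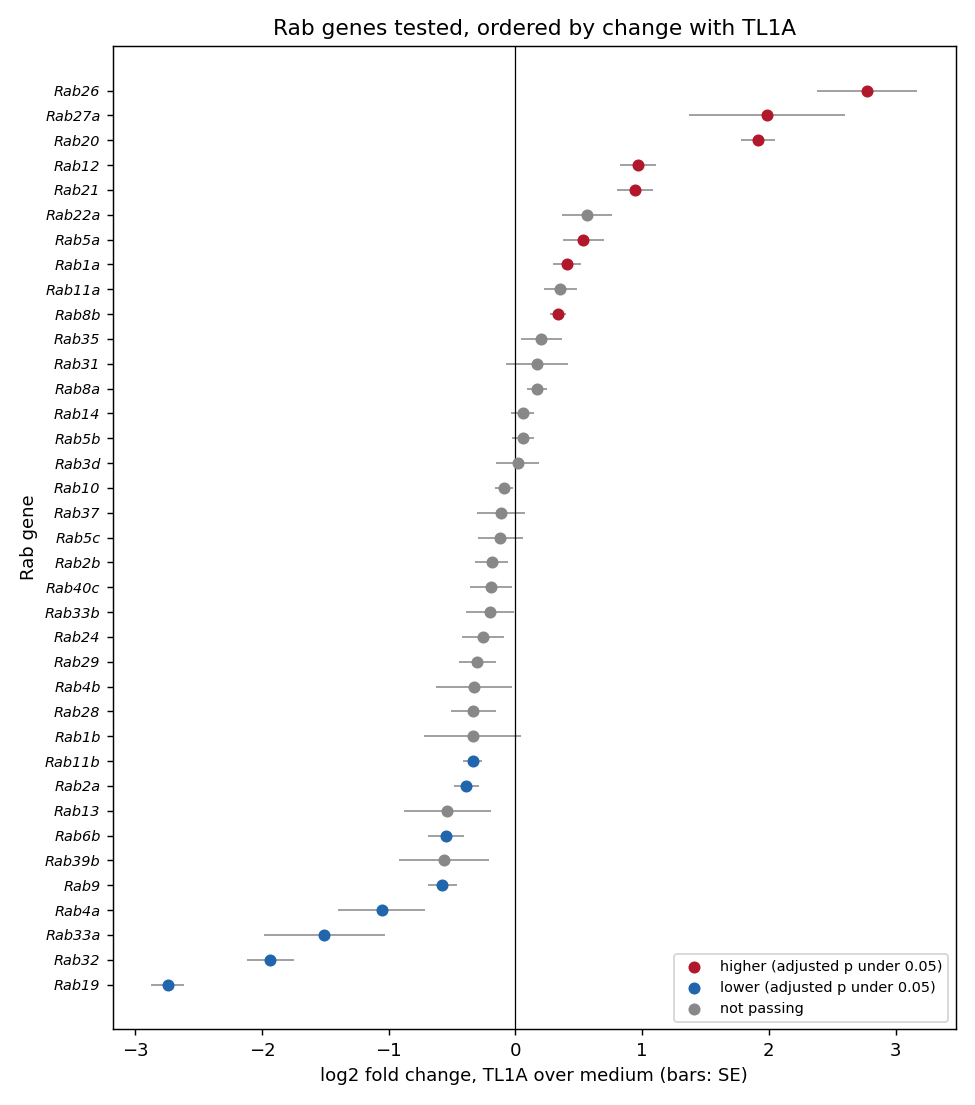
Log2 fold change of each of the 37 tested Rab genes, TL1A over medium, with its standard error (horizontal axis); red and blue points are the 8 higher and 8 lower genes that passed the test, grey points did not pass. Rab26 at 2.77 and Rab19 at -2.74 lie at the ends, and most other members lie within 1 of 0.

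The starts of the most changed genes are shown here so that the members can be compared by sequence. Each line gives the 250 bases upstream of an annotated transcription start, 5′ to 3′ on the gene's strand, from RefSeq on build GRCm38.p6. Rab20 (chr8:11478641-11478890, minus strand) and Rab27a (plus strand, with 2 annotated starts, chr9:73044560-73044809 and chr9:73063898-73064147) were the most increased members with an entry. Rab19 (chr6:39381103-39381352, plus strand) and Rab32 (chr10:10558208-10558457, minus strand) were the most decreased. Capitals mark CACGTG, the E-box.
Rab20: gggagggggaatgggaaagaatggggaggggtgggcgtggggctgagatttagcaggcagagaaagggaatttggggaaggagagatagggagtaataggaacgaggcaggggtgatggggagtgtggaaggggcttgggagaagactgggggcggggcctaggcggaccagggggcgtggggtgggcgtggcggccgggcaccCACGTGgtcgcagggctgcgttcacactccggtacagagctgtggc
Rab27a, first start: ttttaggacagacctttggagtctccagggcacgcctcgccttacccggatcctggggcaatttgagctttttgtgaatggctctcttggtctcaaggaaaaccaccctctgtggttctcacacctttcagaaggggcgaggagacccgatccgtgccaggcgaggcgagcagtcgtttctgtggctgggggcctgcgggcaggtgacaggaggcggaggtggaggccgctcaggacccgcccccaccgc
Rab27a, second start: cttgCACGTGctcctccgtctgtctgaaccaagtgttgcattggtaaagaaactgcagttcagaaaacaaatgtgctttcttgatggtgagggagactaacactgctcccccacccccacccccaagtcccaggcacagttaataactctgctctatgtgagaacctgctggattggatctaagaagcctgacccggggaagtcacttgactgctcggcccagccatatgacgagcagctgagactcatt
Rab19: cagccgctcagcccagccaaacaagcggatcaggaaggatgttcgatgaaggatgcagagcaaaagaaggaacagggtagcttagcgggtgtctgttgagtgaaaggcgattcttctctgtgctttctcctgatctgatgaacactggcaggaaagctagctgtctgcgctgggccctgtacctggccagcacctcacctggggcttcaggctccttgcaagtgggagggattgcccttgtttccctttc
Rab32: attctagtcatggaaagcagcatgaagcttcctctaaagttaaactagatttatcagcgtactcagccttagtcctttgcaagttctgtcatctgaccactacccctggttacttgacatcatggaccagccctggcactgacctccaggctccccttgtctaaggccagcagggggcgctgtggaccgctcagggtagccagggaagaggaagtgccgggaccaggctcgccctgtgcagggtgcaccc

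Windows of 300 bases (250 before and 50 after a start) were found for 48 of the 59 genes, 60 windows in all, and were searched on both strands. The called members Rab26, Rab2a and Rab4a had no window and were not searched. The 7 higher members with a window had 8 in all, as Rab27a had 2. The E-box is the core bound by the lysosomal and autophagy regulators of the TFEB and MITF group and by other helix-loop-helix factors. It was in 6 of the 60 Rab windows (10%) and in 7.15% of all 32851 windows of the table. Its share in the windows of all tested genes, or of all genes called higher, was not counted. Of the 8 windows of higher members 4 held it, 1 each of Rab20, Rab21, Rab27a and Rab5a, but the calls of Rab27a and Rab5a were lost when any 1 library was left out. The other 2 windows were those of Rab24, which did not pass, and Rab23, which was not tested, and none of the 6 windows of lower members held it. In Rab21 and in 1 of the 2 sites of Rab5a the core lay inside the longer palindrome GTCACGTGAC, which was looked for only after these sites were seen. That sequence was in 107 windows, or 0.326% of the table, and 3 of those belong to Rab genes: Rab21, Rab5a and Rab24, of which Rab24 did not pass. The site of Rab24 lies past the start and is not printed. The stretches of the other genes are printed to show the bases around that sequence, for which they were chosen, with the E-box in capitals: chr10:115315604-115315633 on the minus strand, 30 bases upstream of the Rab21 start, and chr17:53479127-53479156 on the plus strand, 95 bases upstream of the Rab5a start.
Rab21: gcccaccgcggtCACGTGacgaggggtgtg
Rab5a: acccggggatgtCACGTGacttcggccccg

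The NF-κB consensus, by its name alone, was in 3 of the 60 Rab windows (5%), against 8.46% of all windows. It was in 0 of the 8 windows of higher members and 0 of the 6 windows of lower members. Of the 21 windows of members that did not pass, 2 held it. The cyclic AMP response element TGACGTCA was in 1 of the 8 windows of higher members, that of Rab5a, and in 1.79% of all windows. The AP-1 motif TGANTCA was in none of the 14 windows of higher and lower members, against 7.81% of all windows. With so few windows, the lack of the NF-κB or AP-1 motif in them says little. A match here describes letters in a window and not a site in use.

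Among Rabs of the ER and Golgi and of constitutive secretion, 2 of 11 tested genes rose and 3 fell. Of all tested genes 20.6% rose and 21.7% fell. Rab19, a Golgi-linked member, had the lowest fold change of the family. It had 156.9 and 167 CPM in medium and 26.8 and 21.6 CPM with TL1A. Both stimulated libraries were far below both medium libraries (log2 fold change -2.74, SE 0.13, edgeR adjusted p = 4.53e-06), a 6.69-fold drop. Rab8b, which carries cargo from the Golgi to the plasma membrane, moved the other way by a smaller amount. It had 897.8 and 846.6 CPM in medium and 1079 and 1123 CPM with TL1A (log2 fold change 0.34, SE 0.06, adjusted p = 0.00477). Its close relative Rab8a had 627.9 and 677.8 CPM in medium and 770.1 and 697.9 CPM with TL1A and did not pass (log2 fold change 0.17, SE 0.08, adjusted p = 0.117), or passed without medium replicate 2 (adjusted p = 0.0304).

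Rab1a and Rab2a, which act in turn on traffic between the ER and the Golgi, were called in opposite directions. Rab1a rose by 0.40 in log2 units (SE 0.11, edgeR adjusted p = 0.022), and the call was lost when medium replicate 2 (0.0699) or either TL1A replicate was left out (0.0595 for replicate 1, 0.0835 for replicate 2). Rab2a fell by 0.39 (SE 0.10, adjusted p = 0.0162), and its call was lost when medium replicate 1 (0.0536) or either TL1A replicate was left out (0.078 and 0.088). Rab6b, a Golgi Rab of retrograde transport, had 37.8 and 42.8 CPM in medium and 28.2 and 27.0 CPM with TL1A. It fell by 0.55 (SE 0.14, adjusted p = 0.0161), with the call lost without medium replicate 2 (0.0832) or TL1A replicate 2 (0.0771). Rab10, which acts in exocytosis, had a log2 fold change of -0.09, and Rab2b, Rab13 and Rab33b had -0.19, -0.54 and -0.20 without passing; Rab33b passed when TL1A replicate 2 was left out (log2 fold change -0.51, adjusted p = 0.0444).

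Rab1b, the other ER-to-Golgi Rab1 gene, could not be assigned a direction. It had 295.6 CPM in medium replicate 1 and 126 CPM in medium replicate 2, then 123.1 and 210.3 CPM with TL1A. The spread inside each group was as wide as any gap between the groups (log2 fold change -0.34, SE 0.38, edgeR adjusted p = 0.518). Its log2 fold change was 0.40 without medium replicate 1 and -0.80 without medium replicate 2, where it passed (adjusted p = 0.0327). Rab4b, a recycling Rab, showed the same arrangement, with 134.1 and 71.2 CPM in medium and 64.7 and 98.5 CPM with TL1A. Its log2 fold change was -0.33 (SE 0.30, adjusted p = 0.419), 0.19 without medium replicate 1, and -0.69 without medium replicate 2, where it passed (adjusted p = 0.035).

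**Figure D2:**
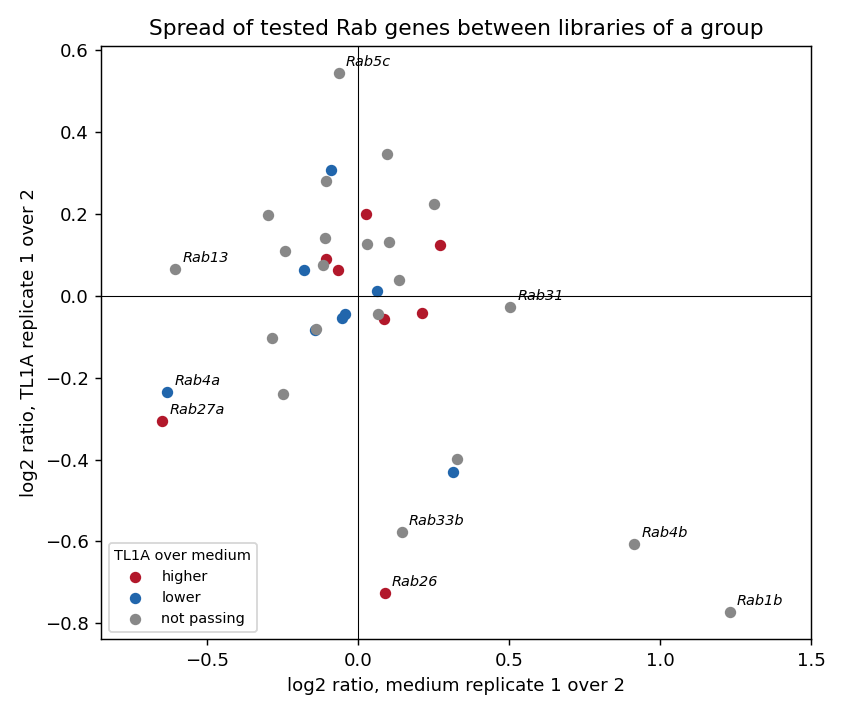
Log2 ratio of replicate 1 over replicate 2 in medium (horizontal axis) and with TL1A (vertical axis) for the 37 tested Rab genes, coloured by their change with TL1A. Rab1b and Rab4b lie far to the lower right, high in medium replicate 1 and low in TL1A replicate 1, and genes with a ratio beyond 0.5 either way are named.

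Rabs of regulated secretion guide secretory granules and vesicles to the membrane. Of 9 listed, 4 could be tested: 2 rose, 2 did not pass and none fell in the edgeR test, also with no adjustment. DESeq2 called 1 higher and limma-voom 2, and neither called any lower. Of all tested genes 20.6% rose and 21.7% fell, so with 4 genes the lack of a fall says little. Rab26, linked to the maturation of secretory granules, had 13 and 13 reads in medium, against 56 and 100 with TL1A, or 1.04 and 0.974 CPM against 5.21 and 8.62 CPM. Both stimulated libraries were above both medium libraries, although they were themselves apart (log2 fold change 2.77, SE 0.40, adjusted p = 0.00119). Its neighbour in name, the opposite-strand RNA Rab26os, had 53 and 65 reads in medium, against 67 and 55 with TL1A and did not pass.

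Rab27a, which docks lytic and other secretory granules and is needed for killing by cytotoxic lymphocytes, was barely counted. Its rows summed to 3 and 5 reads in medium, against 12 and 16 with TL1A. Reads that its 3 deposited rows share are missing from these sums. A change of the gene and a change in which transcripts are made cannot be told apart. The rise was called in the edgeR test (log2 fold change 1.98, SE 0.61, adjusted p = 0.035) but lost its call when any 1 library was left out (adjusted p = 0.206 and 0.119 without medium replicates 1 and 2, 0.14 and 0.234 without TL1A replicates 1 and 2) and with DESeq2 (0.241). Rab27b, its close relative, had 4 deposited rows and 0 reads in every library. Rab37 and Rab3d, both linked to granule release, had log2 fold changes of -0.11 and 0.02. Over the same libraries the mast cell and platelet markers given above were lower with TL1A, and their part in these values was not tested.

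Among Rabs of early endosomes and uptake, 3 of 7 tested members rose, namely Rab20, Rab21 and Rab5a, and none fell in the edgeR test, where 20.6% of all tested genes rose and 21.7% fell. With so few members this was not tested as a direction of the group. With no adjustment 4 rose and none fell. DESeq2 called 2 early endosome members higher and limma-voom 3, and neither called any lower. Rab20, a Rab of maturing phagosomes and endosomes, had 14.9 and 15.6 CPM in medium and 58.8 and 56.3 CPM with TL1A. The groups lay far apart and the libraries of each were close (log2 fold change 1.92, SE 0.13, adjusted p = 3.2e-05), a 3.77-fold rise. Rab20 overlaps the gene of the RNA E230013L22Rik, and reads that fall on both are ambiguous where the strand is not used. That RNA was itself called higher, with 0.557 and 0.674 CPM in medium and 3.63 and 3.19 CPM with TL1A (log2 fold change 2.45, adjusted p = 0.00345), and its part in the Rab20 value was not tested.

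Rab21, which takes integrins into the cell, had 32.6 and 27.0 CPM in medium and 59.9 and 54.9 CPM with TL1A, with no overlap between groups (log2 fold change 0.94, SE 0.14, adjusted p = 0.00161). Rab5a, which drives fusion of early endosomes, rose by 0.53 (SE 0.16, edgeR adjusted p = 0.0325). Its call was lost without any 1 library (0.117 and 0.0501 without medium replicates 1 and 2, 0.125 and 0.0747 without TL1A replicates 1 and 2) and with DESeq2 (0.109). The other Rab5 genes did not pass, with log2 fold changes of 0.06 for Rab5b and -0.12 for Rab5c. Rab22a, another early endosome Rab, missed the threshold (log2 fold change 0.57, SE 0.20, adjusted p = 0.0529) and passed without medium replicate 2 (0.0438). Rab31 had a log2 fold change of 0.17.

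Among recycling Rabs, 2 of 6 tested genes fell and none rose in the edgeR test, where 21.7% of all tested genes fell and 20.6% rose. With no adjustment 2 fell and 1 rose, and DESeq2 and limma-voom each called 1 lower and none higher. Rab11b, a Rab of the recycling endosome, had 261.7 and 271.5 CPM in medium and 206.9 and 214.9 CPM with TL1A. The groups did not overlap, and it fell by 0.34 (SE 0.07, adjusted p = 0.00809; 0.0741 without TL1A replicate 1). Its close relative Rab11a had 37.6 and 35.1 CPM in medium and 48.6 and 44.3 CPM with TL1A, which did not pass (log2 fold change 0.35, SE 0.13, adjusted p = 0.0609).

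The balance of the Rab11 genes can be read inside each library, where no scaling enters. Rab11a had 0.144 and 0.129 reads per Rab11b read in medium and 0.235 and 0.206 with TL1A. Rab5a likewise had 0.0926 and 0.0919 reads per Rab5b read in medium and 0.129 and 0.128 with TL1A. Of 8 such ratios between close relatives, 4 did not overlap between groups, the other 2 being Rab5a per Rab5c, which shares Rab5a, and Rab33a per Rab33b. In CPM of single genes, 72.2% of all tested genes did not overlap. The share for ratios between other gene pairs was not counted, so the 4 of 8 says nothing particular about these pairs. With 2 libraries a group the exact two-sided permutation test has a smallest p of 0.33, which these 4 ratios reached.

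Rab4a, a Rab of fast recycling, had 54 and 89 reads in medium, against 26 and 33 with TL1A, or 4.30 and 6.67 CPM against 2.42 and 2.85 CPM. The medium libraries were apart from each other but both above the stimulated ones (log2 fold change -1.06, SE 0.34, edgeR adjusted p = 0.0421). The call was lost when medium replicate 2 (0.262) or either TL1A replicate was left out (0.133 for replicate 1, 0.0736 for replicate 2), and with DESeq2 (0.173) or limma-voom (0.058), and the log2 fold change was -0.68 without medium replicate 2. Rab14 and Rab35, which also act in recycling, had log2 fold changes of 0.06 and 0.21.

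In the group of late endosomes, lysosomes, lysosome-related organelles and autophagy, 1 of 7 tested genes rose and 3 fell, against 20.6% and 21.7% of all tested genes. Rab32, which directs cargo to lysosome-related organelles, had 81.7 and 65.8 CPM in medium and 16.4 and 22.1 CPM with TL1A. Both medium libraries were far above both stimulated ones (log2 fold change -1.94, SE 0.19, adjusted p = 0.000158). The myeloid markers given above were also lower with TL1A, and their part in the Rab32 value was not tested. Rab38, the closest relative of Rab32, was too low to test, with 9 and 4 reads in medium, against 1 and 0 with TL1A.

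Rab9, which returns receptors from late endosomes to the Golgi, had 60.1 and 61.9 CPM in medium and 40.3 and 41.6 CPM with TL1A. The libraries of each group were close and the groups did not overlap (log2 fold change -0.58, SE 0.11, edgeR adjusted p = 0.00576). Rab12, which sends transferrin receptor from recycling endosomes to lysosomes, was the member of this group that rose. It had 21.4 and 21.0 CPM in medium and 44.4 and 38.6 CPM with TL1A (log2 fold change 0.97, SE 0.14, adjusted p = 0.00146). Rab33a had 23 and 27 reads in medium, against 7 and 8 with TL1A (log2 fold change -1.51, SE 0.48, adjusted p = 0.0376). That call was lost without any 1 library (0.127 and 0.192 without medium replicates 1 and 2, 0.177 and 0.162 without TL1A replicates 1 and 2) and with DESeq2 (0.27). Rab24, Rab29 and Rab39b had log2 fold changes of -0.26, -0.30 and -0.56 and did not pass.

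Of the members outside these groups, Rab28 and Rab40c were tested, and none was called by edgeR, DESeq2 or limma-voom or at an unadjusted edgeR p under 0.05. Their log2 fold changes were -0.33 and -0.19.

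**Figure D3:**
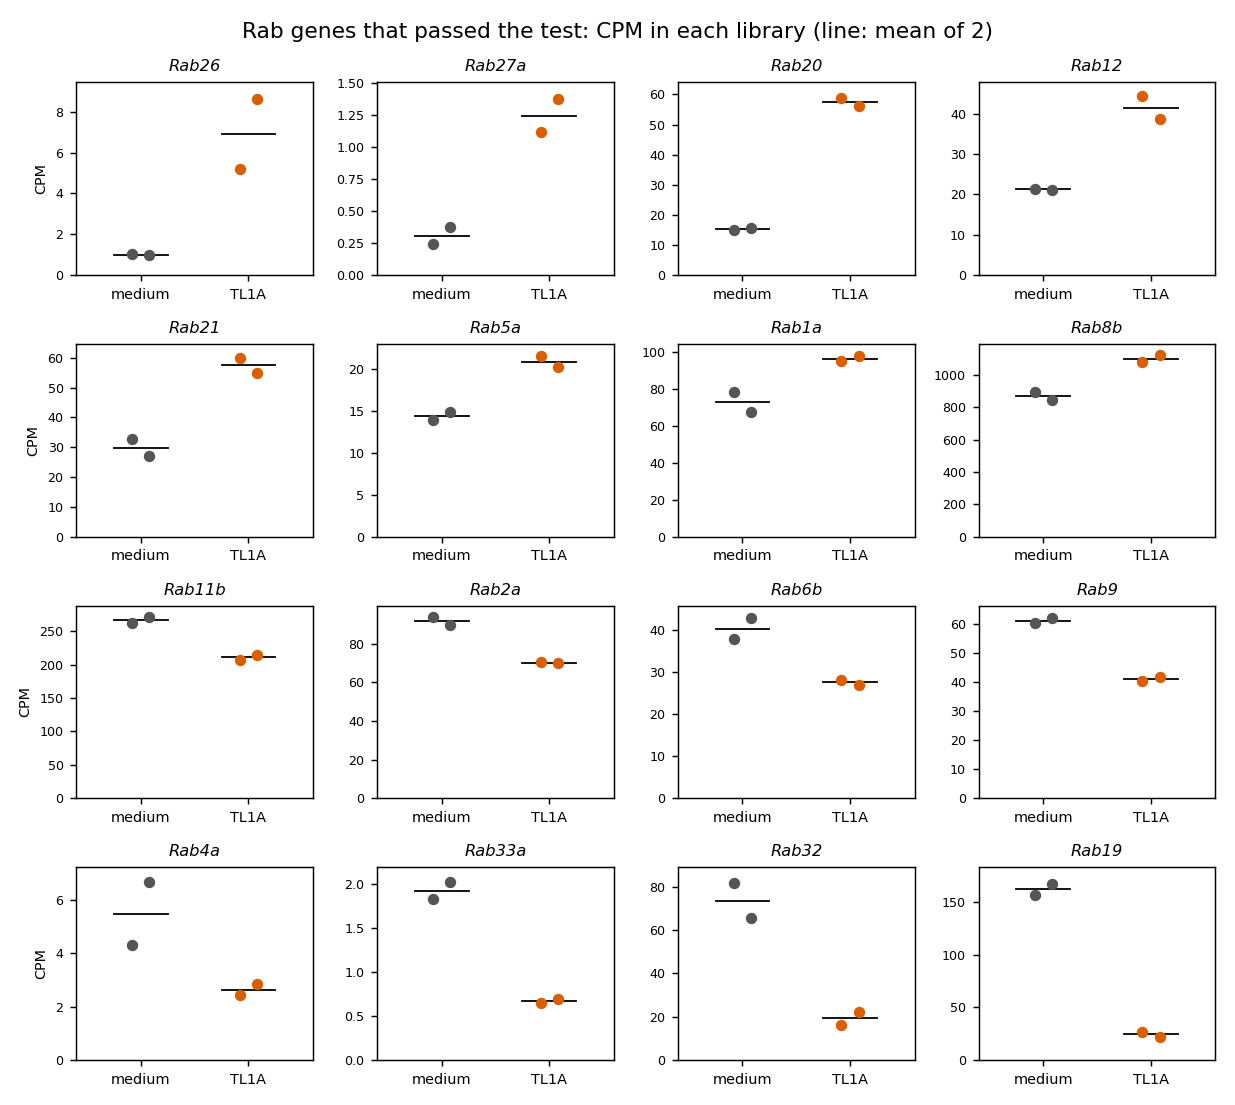
CPM of the 16 Rab genes that passed the test, 1 panel per gene with its own vertical axis starting at 0; grey points are the 2 medium libraries, orange points the 2 TL1A libraries, and lines their means. In every panel the groups do not overlap, and the panels run from the largest increase (Rab26) to the largest decrease (Rab19).

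Many Rab genes were hardly counted. The deposited rows are transcripts, so that reads which several transcripts could have given stand in none of them. Of 45 members with 1 deposited row, 34 were tested, with a median over the 45 of 1260 reads over the 4 libraries. Of 12 members with several rows, 3 were tested, Rab13, Rab27a and Rab37, with a median over the 12 of 4 reads. Rab7, the main late endosome Rab, had 5 rows with 0 and 3 reads in medium, against 2 and 2 with TL1A, and Rab6a had 3 and 8 reads in medium and the same numbers with TL1A. Rab3a, Rab18, Rab23, Rab27b and Rab34, each with several rows, had 0 reads in every library, as did Rab3c and Rab15 with 1 row each. Nothing can be said from this table about the level of members whose rows share most of their exons.

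In all, 20 members with rows were not tested, 7 of them with 0 reads in every library, and none exceeded 24 reads in a library. Rab30, a Golgi Rab, had 0 and 1 reads in medium, against 5 and 24 with TL1A, and was called higher when no filter on low counts was applied (edgeR adjusted p = 0.00544). Rab39 had 0 reads in 3 libraries and 15 in TL1A replicate 2, so its call without the filter (adjusted p = 0.0495) came from 1 library. Rab43 had 4 and 6 reads in medium, against 0 and 0 with TL1A and was not called without the filter (adjusted p = 0.104). Rab7b had 1 and 8 reads in medium, against 3 and 13 with TL1A. The others, Rab3b, Rab9b, Rab17, Rab25, Rab40b and Rab42, had at most 3 reads in a library.

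Levels were compared between genes per kilobase of transcript for the 34 tested members with 1 row, with lengths from GENCODE. These are approximate, since reads shared with overlapping genes are missing. The Rab8 genes stood at the top in both conditions, with 184.3 ± 7.66 CPM per kilobase (SD, n = 2) for Rab8b and 143.5 ± 7.76 for Rab8a in medium, and 232.6 ± 6.52 and 161.3 ± 11.2 with TL1A. Rab1b came next in both conditions, but its spread (110.2 ± 62.7 in medium) covered that of Rab19 (102.8 ± 4.56), Rab4b (86.1 ± 37.3) and Rab10 (76.6 ± 2.52). The level of Rab19 per kilobase ranked 4 in medium and 20 with TL1A, and that of Rab32 moved from rank 12 to rank 26. Rab20 moved from rank 23 (10.9 ± 0.35 CPM per kilobase) to rank 8 (41.3 ± 1.26), next to Rab14 and Rab1a. At the bottom, Rab26 had 0.638 ± 0.0276 CPM per kilobase in medium and 4.39 ± 1.53 with TL1A, where it still ranked only 29.

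**Figure D4:**
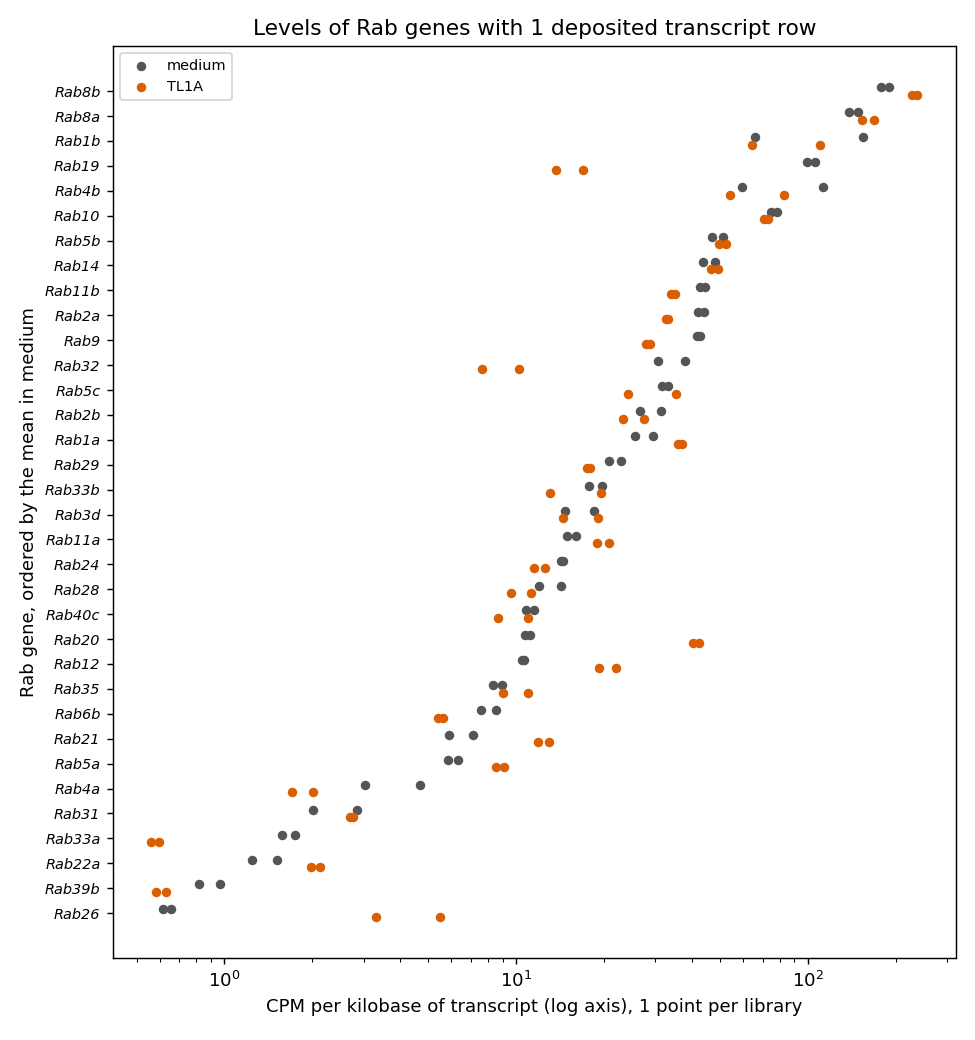
Level per kilobase of transcript of the 34 tested Rab genes with 1 deposited row, on a log axis, with 1 point per library (grey medium, orange TL1A) and genes ordered by their mean in medium. Rab8b and Rab8a lead in both conditions; the TL1A points of Rab19 and Rab32 lie far left of the medium points, and those of Rab20, Rab12, Rab21 and Rab26 to the right.

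Reads shared between transcripts of members with several rows are missing from the sum over the family. The counted reads of the 57 members with rows were 4209 and 3953 CPM of the assigned reads in medium, against 3374 and 3527 with TL1A. This sum was lower with TL1A, and the groups did not overlap (exact permutation p = 0.33, the smallest possible). This direction depends on the scaling: in CPM of the TMM effective library size the values were 3853 and 3619 in medium and 3718 and 3833 with TL1A, which overlap. Rab8a and Rab8b together gave 39.6% and 42.1% of the counted Rab reads in medium and 49.7% and 47.5% with TL1A. This share of reads is not corrected for length.

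Genes that run the Rab cycle were counted next, from 4 lists of regulators and effectors. Of 91 tested, 19 rose and 23 fell, 46.2% in either direction against 42.3% of all tested genes. Fewer of them rose without medium replicate 2, and fewer fell when either TL1A replicate was left out. The same held for all tested genes, though without medium replicate 2 their number changed less. In the list of prenylation and membrane cycling, 2 of 9 rose and 3 fell, against 20.6% and 21.7% of all tested genes. Rabggta, a subunit of the transferase that attaches the lipid anchors of Rabs, had 227.5 and 230.2 CPM in medium and 144.1 and 154.2 CPM with TL1A (log2 fold change -0.62, SE 0.08, edgeR adjusted p = 0.000684). Pde6d, a carrier of prenylated proteins, rose by 1.08 (SE 0.17). Arl6ip5, a member of the family of Rab acceptor proteins, fell by 0.48 (SE 0.12). It missed the threshold without TL1A replicate 2 (log2 fold change -0.36, adjusted p = 0.0626) and passed without medium replicate 2 at a smaller value (log2 fold change -0.29, adjusted p = 0.0342).

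Of the exchange factors, 8 of 32 tested genes rose and 7 fell, against 20.6% and 21.7% of all tested genes. Dennd5a had 52.6 and 49.4 CPM in medium and 379.1 and 414.9 CPM with TL1A (log2 fold change 2.96, SE 0.09, edgeR adjusted p = 6.15e-07). Dennd4a, an exchange factor of Rab10, had 44.1 and 38.2 CPM in medium and 220.3 and 229.7 CPM with TL1A (log2 fold change 2.45). Dennd3, an exchange factor of Rab12, had 65.5 and 65.6 CPM in medium and 214.5 and 232.6 CPM with TL1A (log2 fold change 1.77). Each of these genes was well above either medium library in both stimulated libraries. Dennd1c, an exchange factor of Rab35, went the other way, from 607.2 and 579.7 CPM to 329.9 and 314.8 CPM (log2 fold change -0.88, SE 0.07).

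Of the GTPase-activating proteins, 3 of 24 tested rose and 8 fell, where 20.6% of all tested genes rose and 21.7% fell. Sgsm2, which acts on Rab32, had 48.4 and 41.6 CPM in medium and 10.7 and 12.2 CPM with TL1A (log2 fold change -1.97, SE 0.16, edgeR adjusted p = 7.82e-05). Evi5, which acts on Rab11, fell by 1.53 (SE 0.17), whereas Tbc1d8 rose by 1.92 (SE 0.19) and Rabgap1l by 0.59 (SE 0.07). Among effectors 6 of 26 rose and 5 fell, against the same shares of all tested genes. Eea1, the early endosome tether recruited by active Rab5, had 47.5 and 46.1 CPM in medium and 98.5 and 103.7 CPM with TL1A (log2 fold change 1.11, SE 0.10). Appl1, another Rab5 effector, rose by 0.82 (SE 0.08). Uso1, a Rab1 effector that tethers vesicles at the Golgi, rose by 0.91 (SE 0.09), and Rilpl2, an effector of Rab8 and Rab10 family members, by 0.78 (SE 0.10).

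**Figure D5:**
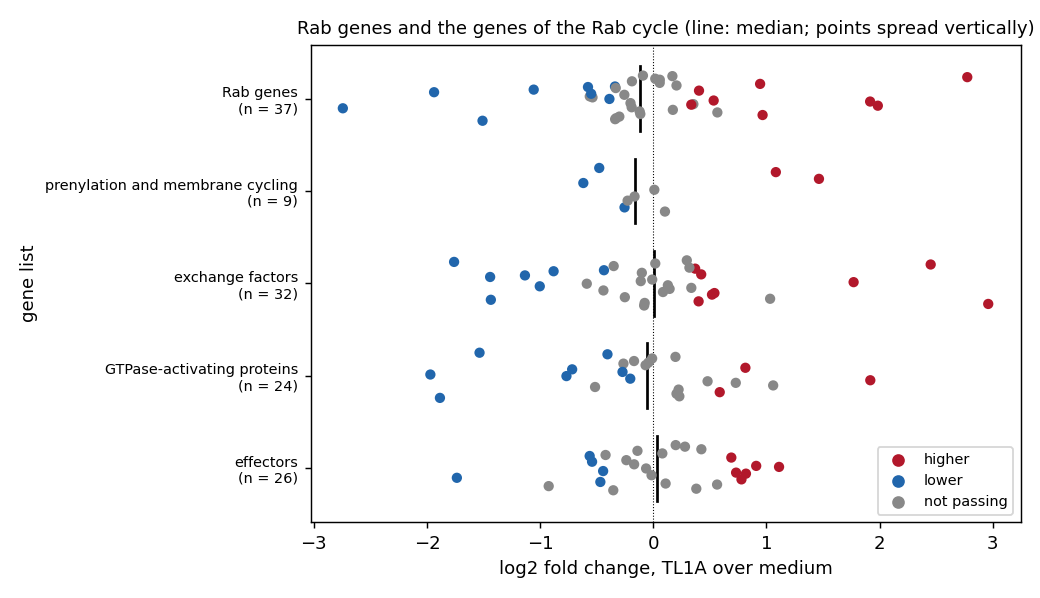
Log2 fold change, TL1A over medium, of the 37 tested Rab genes and of the tested genes of 4 lists of the Rab cycle (9, 32, 24 and 26 genes), 1 point per gene spread vertically for legibility, with list medians as lines; colours mark genes that passed the test. All medians lie near 0 while single genes spread from -2.74 (Rab19) to 2.96 (Dennd5a).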

How the data were processed

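RNA-seq libraries of sorted mouse ILC3s, 2 in medium and 2 with TL1A, were compared. Per the labels' protocols the SMARTer Ultra Low Input RNA Kit was used for cDNA. The submitters' processing notes name CASAVA, STAR and HTSeq with build mm9; their versions, the strand setting and the annotation are not named there or in the labels. The deposited table holds raw counts of reads per RefSeq transcript. It had 33535 transcript rows and 5 summary rows, which name no gene, held 69.9% to 71.3% of a column and were left out. Reads ambiguous between transcripts were 33.7% to 34% of those assigned or ambiguous.

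Rows were summed per symbol through a RefSeq gene table of GRCm38.p6, used for names and neighbours; 33154 rows matched. Tests used edgeR 4.0.16 in R 4.3.3 (filterByExpr at a minimum count of 10, TMM, glmQLFit, glmQLFTest with only the group as a term, two-sided, Benjamini-Hochberg over all 9852 genes). CPM were scaled by TMM effective library size (factors: medium 1.09 and 1.09, TL1A 0.908 and 0.921). The SE was obtained from the log2 fold change and the F statistic. Alternatives used DESeq2 1.42.0, limma 3.58.1, other factors, no filter, single rows and left-out libraries. In a simulation (9676 genes, 200 changed, the same spread for all genes), 13.6% of the genes set to change by 0.5 in log2 units were recovered, 87.5% at 1 and 100% at 2. In the data 4168 genes were called, and with so many the adjustment is less strict. These shares therefore do not describe this comparison. Titles give replicate numbers without saying what they stand for, and same-numbered libraries did not deviate together (r = -0.18 over 9852 genes).

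Values per library are printed for passing members with a log2 fold change of at least 1 either way and the next 6 by p, and of each list of regulators the 4 with the smallest p are named, except 1 gene that is not reported here; the others named were chosen to account for every member. Members and lists were chosen with earlier results of these data known. Protein sequences were not used here.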

Additional observations from a re-analysis of the deposited data

How the results depend on the processing

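Few reads limit some members: Rab26, Rab27a, Rab33a and Rab4a had under 101 reads in every library. For Rab27a, reads shared between its transcripts are missing as well. Simulated counts with far fewer changed genes mostly did not recover a change of 0.5 on the log2 scale. The main test here called smaller ones, such as those of Rab8b (0.34) and Rab11b (-0.34), which that simulation does not describe. Of the 16 Rab genes called, 8 kept their call under each of 12 other settings (Rab26, Rab20, Rab12, Rab21, Rab8b, Rab9, Rab32 and Rab19) and 8 lost it in at least 1; the crossed pairing below was counted over the family and not gene by gene. Leaving out 1 library gave 5 to 8 higher and 4 to 7 lower Rab genes, 12 to 20 higher and 12 to 18 lower genes of the Rab cycle, 1596 to 1956 higher and 1597 to 1822 lower genes in all, and a log2 ratio of the summed Rab reads of -0.29 to -0.20. That ratio was -0.24 per assigned reads and 0.015 with TMM effective library sizes, an alternative added after the data were seen. With the replicate number as a block, 6 Rab genes were higher and 6 lower (1736 and 1806 of all genes), and Rab27a (adjusted p = 0.0722), Rab33a (0.0807), Rab4a (0.0527) and Rab5a (0.0699) lost their calls. A crossed pairing, medium 1 with TL1A 2 and medium 2 with TL1A 1, was also added afterwards. It gave 10 Rab genes higher and 9 lower (2295 and 2439 of all genes). With RLE factors 10 were higher and 8 lower (2106 and 2044 of all genes), as Rab11a (0.047) and Rab22a (0.0473) passed. With upper-quartile factors 7 were higher and 8 lower (1819 and 2378 of all genes), as Rab5a (0.0507) did not pass. Without the filter, Rab27a (0.0698) and Rab33a (0.0507) lost their calls.

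The sign changed only in members that were not called in the main test. With upper-quartile factors the log2 fold change was -0.00062 for Rab14, -0.0017 for Rab5b and -0.036 for Rab3d. Over the left-out libraries it ran from -0.018 to 0.16 for Rab14, from -0.80 to 0.40 for Rab1b, from -0.031 to 0.44 for Rab31, from -0.51 to 0.065 for Rab33b, from -0.26 to 0.071 for Rab37, from -0.19 to 0.21 for Rab3d, from -0.69 to 0.19 for Rab4b, from -0.0077 to 0.14 for Rab5b and from -0.41 to 0.14 for Rab5c. The cause was not tested. The planned test of unequal change between transcript rows could not be run on any Rab gene, since none had 2 tested rows (268 other genes had).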

Other observations

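The uneven values of Rab1b and Rab4b had company. Among 3720 genes with a mean of at least 50 CPM, 52 were at least 1.4 times higher in medium replicate 1 than in medium replicate 2 and at least 1.4 times higher in TL1A replicate 2 than in TL1A replicate 1. In none of the other 3 arrangements of the same size was a gene found. These 52 include Rab1b, Rab4b and Rabac1, which encodes a Rab acceptor that binds prenylated Rabs, and no other of the 16 Rab genes at that level. The pattern was looked for after the values of Rab1b and Rab4b were seen. The opposite-strand RNA Rab10os, below that level, was arranged alike, with 729 and 341 reads in medium, against 254 and 432 with TL1A, while Rab10 itself had 275.3 and 262.7 CPM in medium and 248.6 and 256.4 CPM with TL1A.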
